A study of Homo sapiens with 6 samples.

Results

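The genes described here are the voltage-gated and potassium ion channel genes: every protein-coding gene whose symbol starts with KCN (potassium channels), has the form SCN, number, A or B (voltage-gated sodium channels), or starts with CACN (voltage-gated calcium channels). The rule used gene names only and found 136 genes among the 58302 gene identifiers of each count table. They were measured by poly(A) RNA sequencing of A375, an established human melanoma cell line, carrying either HMGB2 overexpression (3 libraries) or an empty vector (3 libraries), with no other treatment, time point or genotype. Both groups came from stable lines made by lentiviral transduction of the same parental line, and the 3 replicates of a group were cell pellets that the study's reporting form calls technical, so that p-values measure the spread between pellets and not between independent transductions. HMGB2, the overexpressed gene, checked the labels: its normalized counts were 7250, 7729 and 7562 in the empty vector libraries and 15095, 16848 and 14609 in the overexpression libraries. The groups did not overlap, and the rise was 1.05 on the log2 scale (SE 0.10, n = 3 and 3, DESeq2 adjusted p = 4.4e-22).

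Ion channels are membrane proteins that let selected ions cross down their electrochemical gradient. Voltage-gated sodium (Nav) and calcium (Cav) channels open when the membrane depolarizes, voltage-gated potassium (Kv) channels open to repolarize it, and inward rectifier (Kir) and tandem-pore (K2P) potassium channels hold the resting potential. The Nav, Cav and Kv families pair pore-forming subunits with accessory subunits that set trafficking and gating. In non-excitable cells, melanoma cells included, potassium channels are best known for setting the membrane potential, cell volume and the driving force for calcium entry.

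Libraries held 45925053 to 56755212 reads assigned to genes. Normalized counts are reads divided by DESeq2 size factors, and a gene was detected when their mean over all 6 libraries was at least 10; TPM values divide reads by exon length and then scale every library to the same total, and are the scale on which different genes are compared. Empty vector replicate 3 stood apart from its group: without it 2854 of all genes passed the test, against 930 with it, and its KRT5 count of 279 lay with the overexpression libraries (200 to 289) and not with the other empty vector libraries (5.05 and 11.5). Values without it are therefore given beside the calls it changes or moves. They keep overexpression replicate 3, whose deviations from its group correlated with those of empty vector replicate 3 (0.349 over 16692 genes). Such fits are thus unbalanced for the third replicates. With a term for the third replicates 2733 of all genes passed. Log2 fold changes in that fit were −0.82 for KCNT2, 0.69 for KCNK1, 1.19 for KCNK2, −0.88 for CACNB1 and 0.88 for SCN2A. HMGB2 overexpression replicate 3 had 10.6% of its reads mapped to several places, against 2.58% to 4.89% in the other libraries. Among markers of the melanocyte lineage and of melanoma, PRAME (168 TPM), S100B (143 TPM) and MITF (14.9 TPM) were present, while MLANA (0.15 TPM), TYR (0.0047 TPM) and DCT (0.016 TPM) were at or near 0. None of the 7 tested passed. Their summed levels, to which PRAME and S100B gave most, were 313 to 332 TPM in the empty vector and 321 to 362 TPM in the overexpression libraries. SOX10 was listed at 0 in the counts used, which drop reads shared with a gene on the other strand, although 253416 reads lay on it when each strand was counted alone. Of reads counted that way, the counts used held 3.37% of 10158 for PMEL and 1.82% of 47661 for S100A1, both among the tested markers. The tests and summed levels leave the other reads of these genes out. Of 13 markers of other cells, 11 were tested and 2 passed: SNAP25, a synaptic vesicle fusion protein, was higher (1.07 on the log2 scale, DESeq2 adjusted p = 0.0015, n = 3 and 3) and RBFOX3, a neuronal splicing factor, lower (−4.59, adjusted p = 0.00035). The summed level of these markers was 135 to 143 TPM in the empty vector and 151 to 159 TPM in the overexpression libraries. Of the leukocyte markers, PTPRC was at 0 throughout and CD3E at 0.0082 TPM, whereas LYZ was at 23.0 TPM and did not pass. The part of such shifts in the channel values was not tested, and in bulk RNA fewer cells expressing a gene and less RNA per cell cannot be told apart.

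A375 cells expressed 68 of the 136 channel genes above the detection threshold, at levels that spanned from below 0.1 to above 200 TPM. Only 27 of them reached 1 TPM and 7 reached 10 TPM. The order at the top was KCNN4 (238 TPM), KCNG1 (43.3 TPM), KCNS3 (17.5 TPM), KCNK1 (16.4 TPM), CACNB3 (13.4 TPM), KCNK5 (13.0 TPM) and CACNA2D1 (10.7 TPM). The ranges over the 6 libraries of KCNS3 (12.7 to 23.2 TPM), KCNK1 (11.6 to 22.1 TPM), CACNB3 (11.3 to 15.8 TPM) and KCNK5 (9.88 to 15.9 TPM) overlapped, so that their order is not resolved by these libraries, whereas KCNN4 (181 to 302 TPM) was above every other channel gene in every library. KCNN4 encodes the intermediate-conductance calcium-activated potassium channel, and KCNG1 and KCNS3 encode silent Kv subunits, which form no channel alone and modify those they join. The 3 members at or above 10 TPM that form pores were thus all potassium channels (KCNN4, KCNK1 and KCNK5), while the Cav genes at that level were accessory: CACNB3, a cytoplasmic β subunit, and CACNA2D1, an extracellular α2δ subunit. No detected Nav or Cav pore gene reached 1 TPM. Detection varied by family, from 4 of 17 Kv pore genes and 4 of 10 Nav pore genes to 9 of 13 Kv accessory genes and 4 of 4 α2δ genes. No read was assigned to 14 members: KCNA1, KCNA3, KCNA5, KCNA6, KCNA10, KCNK4, KCNK16, KCNK17, KCNK18, SCN10A, CACNG1, CACNG2, CACNG3 and CACNG5. For these, a count of 0 over 306293950 reads allows up to 3 reads, covering counting error only.

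**Figure D1:**
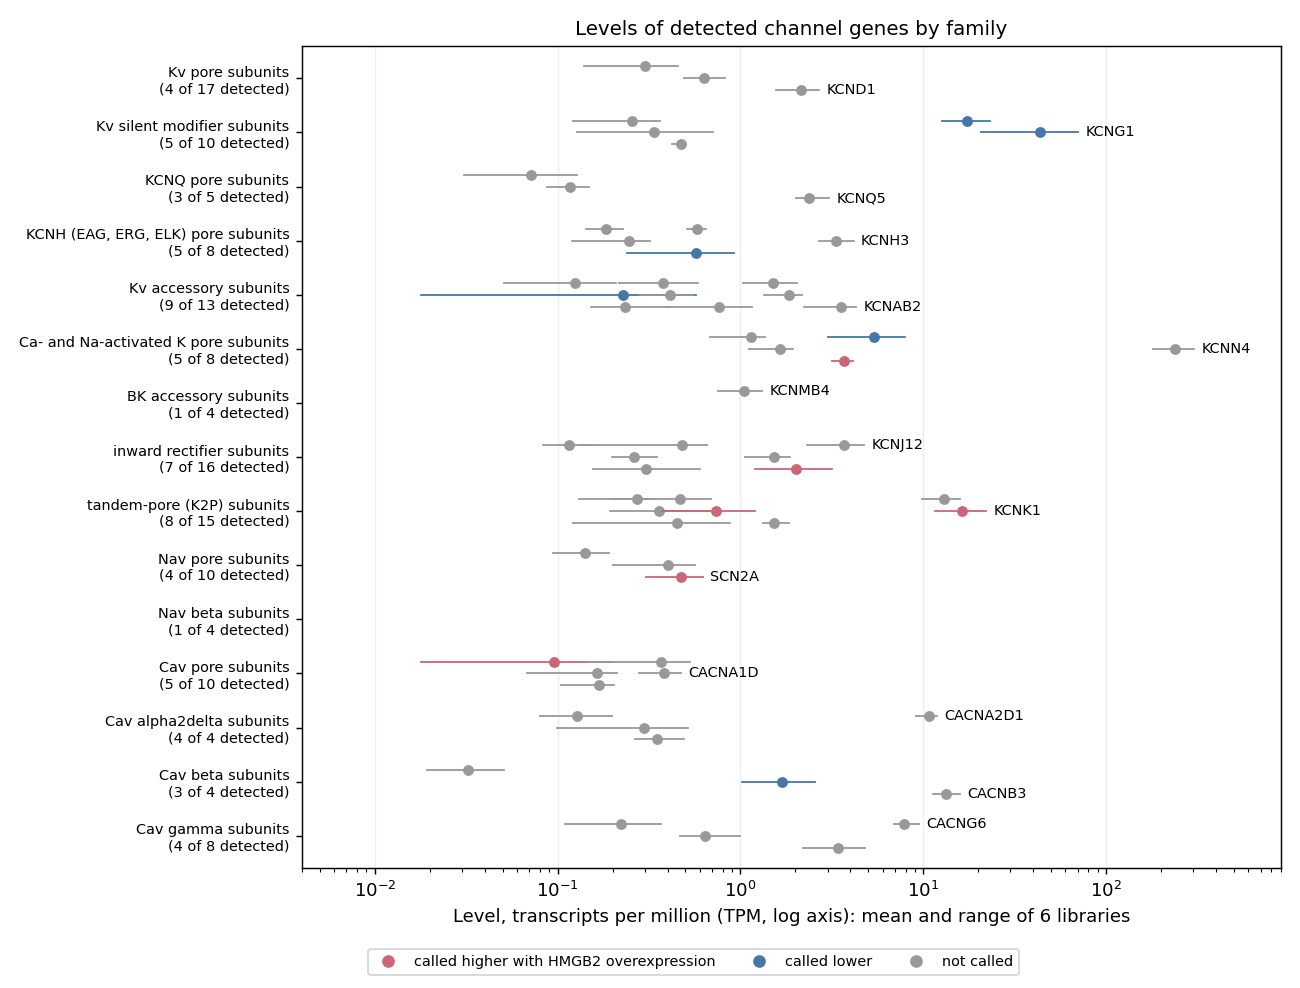
Level of 65 of the 68 detected channel genes by family, in TPM on a log axis; points are means and lines the range over the 6 libraries, and the highest gene plotted in each family is named. KCNN4 (238 TPM) lies alone at the right, and the points of Nav and Cav pore genes lie below 1 TPM.

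With HMGB2 overexpression, 13 channel genes changed, 7 higher and 6 lower. That is 16.0% of the 81 that received an adjusted p, against 4.94% of all 18836 genes tested by the same fit (2.29% higher and 2.64% lower). The 7 that rose were KCNMA1, KCNJ2, KCNJ8, KCNK1, KCNK2, SCN2A and CACNA1E, and the 6 that fell were KCNG1, KCNS3, KCNH1, KCNE3, KCNT2 and CACNB1. Of 52 pore-forming genes tested, 7 rose and 2 fell, and of 29 accessory and silent subunits tested none rose and 4 fell. The difference between these roles was not tested, and 3 accessory genes were called higher in other fits: KCNAB2 and CACNB3 with a term for the third replicates, and CACNA2D4 without empty vector replicate 1. By family, the risers were 2 Kir, 2 K2P, 1 calcium-activated potassium, 1 Nav and 1 Cav gene, and 4 of the 6 that fell belonged to the Kv group in the wide sense (2 silent subunits, 1 EAG channel and 1 accessory subunit). Groups did not overlap in 29 of the 68 detected members (42.6%, 15 higher and 14 lower), against 22.8% of all 16692 detected genes. The median log2 fold change of the detected members was 0.15, and that of all detected genes −0.00. The 13 were called by DESeq2 with a Wald test; edgeR's quasi-likelihood test called 10 (4 higher, 6 lower), against 2.81% of all genes it tested, and did not call KCNMA1, KCNK2 and CACNA1E. In 15 fits, the 6 libraries with DESeq2 and 14 alternatives, KCNG1, KCNS3, KCNH1, KCNT2, KCNJ2 and KCNK1 were called every time.

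**Figure D2:**
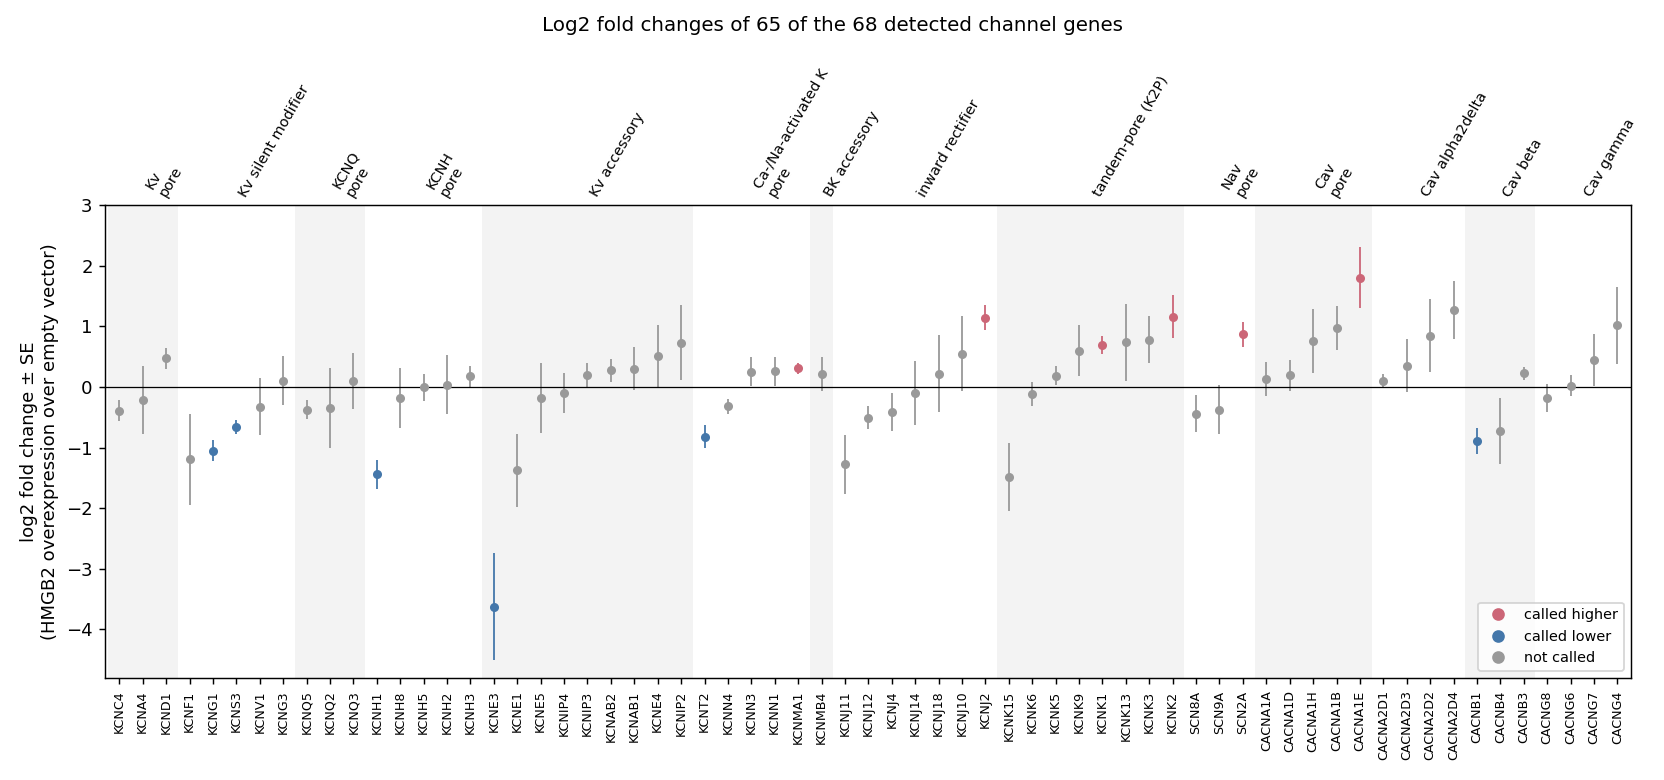
Log2 fold change of 65 of the 68 detected channel genes, HMGB2 overexpression over empty vector, with its SE from DESeq2 (3 and 3 libraries), ordered within family; colours mark genes with adjusted p under 0.05. The 4 called genes of the Kv groups lie below 0 (−0.66 to −3.63), the called inward rectifier and tandem-pore genes shown above it; KCNJ8 is called but below the detection threshold and not plotted.

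Sequence in front of the RefSeq gene start is shown for the members called in every fit, because these are the changes that no choice of fit removed. RefSeq (GRCh38.p14) gave a promoter for 98 of the 136 members and for 5 of these 6 genes; KCNG1 had no entry. The 250 bases before the RefSeq start are printed 5′ to 3′ on the gene's strand, with capitals marking exact matches to 3 motifs. These were the GC box, GGGCGG, the CCAAT box, which is those 5 letters, and the TATA box, spelled TATAAA. Each was searched on both strands, so that its reverse complement is in capitals too, and neighbouring matches may share letters. The window of KCNS3 lies at chr2:17877597-17877846 (plus strand), KCNH1 at chr1:211134149-211134398 (minus), KCNT2 at chr1:196608441-196608690 (minus), KCNJ2 at chr17:70169282-70169531 (plus) and KCNK1 at chr1:233613856-233614105 (plus). The gene bounds given further below come from GENCODE, whose starts can differ from those of RefSeq. By those bounds the windows of KCNJ2 and KCNT2 lie inside the gene, that of KCNH1 overlaps it in part, and those of KCNS3 and KCNK1 lie directly before it.
KCNS3: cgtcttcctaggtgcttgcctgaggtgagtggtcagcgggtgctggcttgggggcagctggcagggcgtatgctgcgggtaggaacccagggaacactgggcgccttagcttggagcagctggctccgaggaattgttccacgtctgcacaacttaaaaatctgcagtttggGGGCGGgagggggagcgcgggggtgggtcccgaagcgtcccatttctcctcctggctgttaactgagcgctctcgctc
KCNH1: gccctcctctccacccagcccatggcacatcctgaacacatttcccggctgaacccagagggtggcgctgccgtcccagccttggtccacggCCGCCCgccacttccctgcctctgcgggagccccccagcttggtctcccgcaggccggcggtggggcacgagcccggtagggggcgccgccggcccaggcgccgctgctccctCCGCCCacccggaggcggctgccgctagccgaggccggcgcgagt
KCNT2: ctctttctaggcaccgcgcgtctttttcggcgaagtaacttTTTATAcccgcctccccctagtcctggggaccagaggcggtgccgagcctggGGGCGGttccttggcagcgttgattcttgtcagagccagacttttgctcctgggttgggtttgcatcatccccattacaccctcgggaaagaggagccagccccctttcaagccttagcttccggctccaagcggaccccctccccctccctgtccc
KCNJ2: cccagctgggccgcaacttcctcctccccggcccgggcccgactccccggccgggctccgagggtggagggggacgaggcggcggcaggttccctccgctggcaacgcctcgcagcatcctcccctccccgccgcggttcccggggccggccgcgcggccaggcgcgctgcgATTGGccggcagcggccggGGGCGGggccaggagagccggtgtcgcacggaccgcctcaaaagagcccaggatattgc
KCNK1: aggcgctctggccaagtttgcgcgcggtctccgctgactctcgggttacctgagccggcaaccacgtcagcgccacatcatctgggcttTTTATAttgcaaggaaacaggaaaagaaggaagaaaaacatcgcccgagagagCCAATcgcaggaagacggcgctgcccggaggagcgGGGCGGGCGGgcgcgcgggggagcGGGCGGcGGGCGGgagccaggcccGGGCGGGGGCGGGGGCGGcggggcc
All 5 held at least 1 GC box, a motif in 42.5% of all 34943 promoters and in 57.1% of the 98 channel promoters. KCNK1 held 7 matches, some overlapping, KCNH1 held 2, and the other 3 genes held 1 each. A CCAAT box was present in KCNJ2 and KCNK1 (32.0% of all promoters, 29.6% of channel promoters) and a TATA box match in KCNT2 and KCNK1 (10.8% and 7.14%). None held the AP-1 site TGANTCA (6.59% of all promoters, 6.12% of channel promoters). The GC content of the 5 was 60.4% to 77.6%, against medians of 58.0% over all promoters and 64.8% over channel promoters. Of the 5, KCNJ2 and KCNK1 rose and KCNS3, KCNH1 and KCNT2 fell: GC boxes occurred in both directions, as did TATA box matches, while the CCAAT box occurred in the genes that rose and not in those that fell, a description of 5 promoters with no test. These matches describe letters in this window and were not tested as binding sites.

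**Figure D3:**
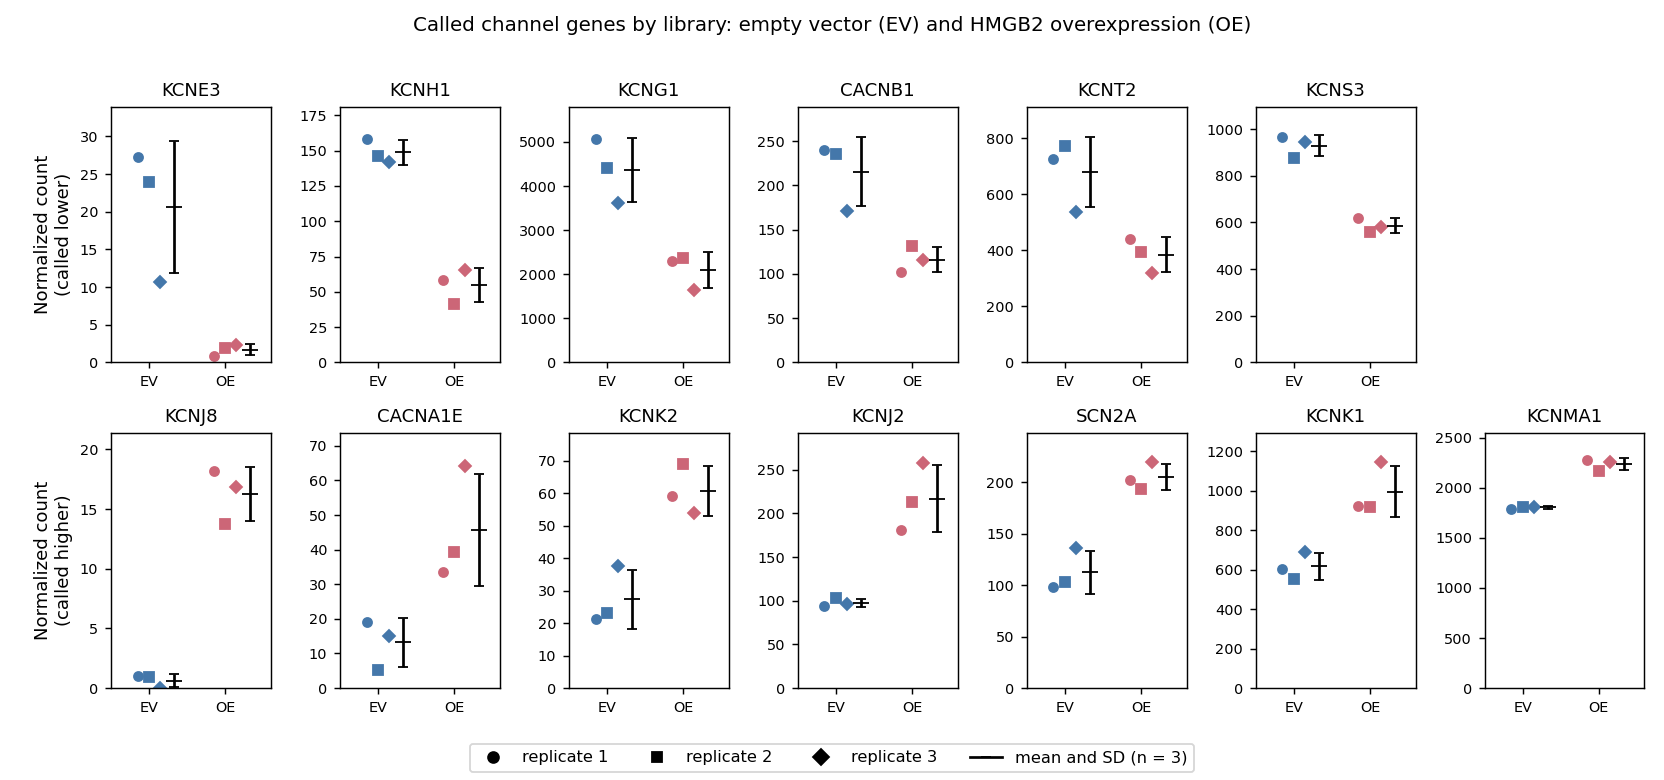
Normalized counts of the 13 called channel genes in each library (linear axes from 0; symbols are replicates 1 to 3, bars mean and SD, n = 3 per group; EV, empty vector; OE, HMGB2 overexpression). In all 13 panels the 3 overexpression points lie on one side of the 3 empty vector points.

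The silent Kv subunits held the highest-expressed channel genes that fell. KCNG1 (ENSG00000026559, chr20:51003656-51023107 on hg38, minus strand) had normalized counts of 5065, 4416 and 3608 in the empty vector and 2297, 2378 and 1639 in the overexpression libraries. Every overexpression value was below every empty vector value, and in both groups replicate 3 was the lowest. It fell by 1.05 on the log2 scale (SE 0.18, DESeq2 adjusted p = 4.47e-07, n = 3 and 3), and by 1.17 without empty vector replicate 3. An antisense gene overlaps its exons, and the counts used held 62.7% of the reads counted when each strand was taken alone. With all of those reads, which can include reads of the antisense gene, the change was −1.04. KCNS3 (ENSG00000170745, chr2:17877847-18361616), whose product joins Kv2 channels, had 965, 877 and 943 normalized counts in the empty vector and 619, 559 and 581 with overexpression. The spread within each group was small beside the gap, with means of 928 ± 45.8 and 587 ± 30.4 (SD, n = 3), and it fell by 0.66 on the log2 scale (SE 0.12, DESeq2 adjusted p = 2.59e-06). The other 3 detected silent subunits, KCNF1, KCNG3 and KCNV1, were below 1 TPM and did not pass. KCNF1 had a log2 fold change of −1.19 with SE 0.75, and its groups overlapped.

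Among voltage-gated potassium pores, KCNH1 (EAG1, ENSG00000143473, chr1:210676823-211134165, minus strand), a channel long studied for its expression in tumours, was the only gene called of 17 tested. Its normalized counts were 159, 146 and 142 in the empty vector and 58.1, 41.4 and 65.3 in the overexpression libraries. The groups were well separated, with means of 149 ± 8.77 and 54.9 ± 12.3 (SD, n = 3), and it fell by 1.44 on the log2 scale (SE 0.24, DESeq2 adjusted p = 5.54e-07). Of the 50-base words in its exons, 18.1% occur elsewhere, most in the pseudogene IPO8P1 that overlaps it. The counts used held 40.4% of the reads counted when each strand was taken alone. With all of those reads, which can include reads of an overlapping gene, KCNH1 changed by −1.60. Its family holds the EAG, ERG and ELK channels, of which KCNH3, the highest at 3.33 TPM, had 200, 208 and 176 normalized counts in the empty vector and 207, 251 and 201 with overexpression. KCNH2 (hERG), the repolarizing channel of heart muscle, had a log2 fold change of 0.04 with SE 0.48. None of the 7 tested Kv1 to Kv4 pore genes passed. KCND1 and KCNC4 did not overlap between groups and did not pass, with log2 fold changes of 0.47 (adjusted p = 0.117) and −0.39 (adjusted p = 0.219) by DESeq2 (n = 3 and 3). KCNC4 passed without empty vector replicate 3 (−0.48, adjusted p = 0.0461, DESeq2). Of the KCNQ genes, which carry the M current of neurons, KCNQ5 was the highest at 2.37 TPM, with 440, 465 and 355 counts in the empty vector and 324, 315 and 333 with overexpression. Its change of −0.38 (SE 0.16, adjusted p = 0.179, DESeq2, n = 3 and 3) passed in 3 of 15 fits, including that without empty vector replicate 3 (−0.48, adjusted p = 0.012).

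Of the 10 Kv accessory genes tested, only KCNE3 changed. KCNE3 (MiRP2, ENSG00000175538, chr11:74454841-74467729, minus strand), a single-span subunit that keeps KCNQ1 open in epithelia, had 27.3, 23.9 and 10.7 normalized counts in the empty vector and 0.908, 1.97 and 2.25 with overexpression. In reads that was 64 in all against 5, and empty vector replicate 3 was the lowest of its group. The ratio of empty vector to overexpression was 12.6 (95% counting interval 5.13 to 40.1). On the log2 scale it fell by 3.63 (SE 0.88, DESeq2 adjusted p = 0.0019, n = 3 and 3), edgeR gave an adjusted p of 0.018, and without empty vector replicate 1 the adjusted p was 0.0811. An antisense gene overlaps its exons, and the counts used held 62.2% of the reads counted when each strand was taken alone. With all of those reads, which can include reads of the antisense gene, the change was −2.63. Without empty vector replicate 3 DESeq2 gave KCNE3 no adjusted p. KCNE1, the partner of KCNQ1 in the heart, had 17.2, 20.4 and 16.1 counts in the empty vector and 9.99, 4.92 and 5.63 with overexpression. Its groups did not overlap, but it did not pass (−1.37, SE 0.61, DESeq2 adjusted p = 0.226). KCNAB2, a cytoplasmic β subunit and the highest of the family at 3.56 TPM, had 875, 876 and 552 counts against 945, 997 and 844, groups that overlapped (0.27, SE 0.19); without empty vector replicate 3, its lowest library, the change was 0.086.

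The calcium- and sodium-activated potassium channels moved in both directions. KCNT2 (Slick, ENSG00000162687, chr1:196225779-196609225, minus strand), a sodium-activated channel, had 726, 773 and 538 normalized counts in the empty vector and 441, 393 and 320 with overexpression. The groups did not overlap, replicate 3 was lowest in both, and it fell by 0.82 on the log2 scale (SE 0.19, DESeq2 adjusted p = 0.000636, n = 3 and 3), or by 0.96 without empty vector replicate 3. KCNMA1 (ENSG00000156113, chr10:76869601-77638369, minus strand), the pore of the large-conductance BK channel, had 1793, 1814 and 1806 counts in the empty vector and 2277, 2166 and 2261 with overexpression. Its rise was small and its replicates were tight (1804 ± 10.6 and 2235 ± 60.1, SD, n = 3), giving 0.31 on the log2 scale (SE 0.09, DESeq2 adjusted p = 0.0239). This call was lost with edgeR (adjusted p = 0.0905) and on leaving out any library other than empty vector replicate 3 (adjusted p up to 0.463, DESeq2). KCNMB4, the BK β subunit common in neurons, was the only BK accessory gene detected in the counts used, at 1.05 TPM, and had a log2 fold change of 0.22 (SE 0.28). These counts cannot decide whether KCNMB3 was detected, because they drop the reads it shares with PIK3CA on the opposite strand. KCNN4, the highest-expressed channel gene, had 12570, 11767 and 9855 counts in the empty vector and 9292, 9817 and 8316 with overexpression. Although the groups did not overlap, empty vector replicate 3 lay just above the highest overexpression library. The change of −0.32 (SE 0.13) did not pass (DESeq2 adjusted p = 0.161, n = 3 and 3) and did so without empty vector replicate 3 (−0.41, adjusted p = 0.000329). It passed in 4 of 15 fits in all. The small-conductance channels KCNN1 and KCNN3 had log2 fold changes of 0.26 each, with overlapping groups.

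Of 10 inward rectifier genes tested, 2 rose and none fell. KCNJ2 (Kir2.1, ENSG00000123700, chr17:70168673-70180044), the main strong inward rectifier of muscle, had 93.9, 103 and 96.6 normalized counts in the empty vector and 181, 213 and 258 with overexpression. The empty vector libraries lay close together and all 3 overexpression libraries stood above them. The means were 97.8 ± 4.52 and 217 ± 38.7 (SD, n = 3), a rise of 1.15 on the log2 scale (SE 0.21, DESeq2 adjusted p = 5.32e-06). KCNJ8 (Kir6.1, ENSG00000121361, chr12:21764955-21775600, minus strand), a pore of ATP-sensitive potassium channels, had 1.01, 0.886 and 0 counts in the empty vector and 18.2, 13.8 and 16.9 with overexpression. That is 2 reads in all against 49, a ratio of 24.9 (95% counting interval 6.53 to 211), and its mean of 8.46 was below the detection threshold. The gene was essentially silent with the empty vector and low with overexpression (fitted log2 fold change 4.64, SE 1.20, DESeq2 adjusted p = 0.0044; edgeR adjusted p = 0.00903; n = 3 and 3). Its call was lost without empty vector replicate 1 (adjusted p = 0.0686, DESeq2) or replicate 2 (0.0733), and 5 fits gave it no adjusted p. An antisense gene overlaps its exons, and the counts used held 46.8% of the reads counted when each strand was taken alone. With all of those reads, which can include reads of the antisense gene, the change was 3.70. The partner of KCNJ8, ABCC9, and its paralogue ABCC8 stood on the list of subunits outside the rule and did not pass. KCNJ11 (Kir6.2), the other ATP-sensitive pore, had 39.4, 26.6 and 21.5 counts in the empty vector and 10.9, 11.8 and 13.5 with overexpression. These groups did not overlap and lay in the opposite order to KCNJ8, but KCNJ11 did not pass (−1.28, SE 0.48, DESeq2 adjusted p = 0.119). KCNJ12 (Kir2.2), the highest of the family at 3.70 TPM, had 347, 343 and 293 counts against 226, 282 and 185. The groups did not overlap, and 17.4% of its 50-base words occur also in KCNJ18, a near copy, so reads can be lost between them. Its change of −0.50 (SE 0.19, adjusted p = 0.12, DESeq2, n = 3 and 3) passed in 3 fits, including that without empty vector replicate 3 (−0.58, adjusted p = 0.023). Groups thus did not overlap in 5 of the 7 detected Kir genes (71.4%), against 22.8% of all detected genes. Of these 5, 2 were higher (KCNJ2 and KCNJ10) and 3 lower (KCNJ4, KCNJ11 and KCNJ12).

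Among K2P channels, which carry the background potassium leak, 2 of 9 tested rose and none fell. KCNK1 (TWIK1, ENSG00000135750, chr1:233614106-233672514), the highest of the family, had 604, 554.5 and 690 normalized counts in the empty vector and 923, 917 and 1146 with overexpression. All overexpression values were above all empty vector values, with replicate 3 the highest in both groups (616 ± 68.6 and 995 ± 130, SD, n = 3). The rise was 0.69 on the log2 scale (SE 0.15, DESeq2 adjusted p = 0.000238), or 0.78 without empty vector replicate 3. KCNK2 (TREK1, ENSG00000082482, chr1:215005775-215237090), a mechanically gated leak channel, had 21.2, 23.0 and 37.6 counts in the empty vector and 59.0, 68.9 and 54.0 with overexpression. Its groups did not overlap, and the rise was 1.16 (SE 0.35, DESeq2 adjusted p = 0.0235, n = 3 and 3), or 1.46 without empty vector replicate 3. The call held in 8 of 15 fits, and edgeR gave an adjusted p of 0.0619. KCNK5 (TASK2), second in the family at 13.0 TPM, had 752, 612 and 541 counts in the empty vector and 679, 811 and 682 with overexpression, groups that overlapped (0.19, SE 0.16). KCNK3 (TASK1) and KCNK9 (TASK3), acid-sensitive leak channels, were higher without overlap and did not pass (0.78, SE 0.39, and 0.60, SE 0.42). KCNK15 had the lowest log2 fold change of the detected K2P genes at −1.49 (SE 0.56), with 29.3, 19.5 and 20.4 counts in the empty vector and 9.08, 10.8 and 4.50 with overexpression. Its groups did not overlap and it did not pass (DESeq2 adjusted p = 0.117, n = 3 and 3). Antisense genes overlap it, and the counts used held 42.2% of the reads counted when each strand was taken alone. With all of those reads, which can include reads of the antisense genes, KCNK15 passed (−1.56, adjusted p = 0.00407, DESeq2).

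Sodium channels were low, and SCN2A alone changed of 6 Nav genes tested. SCN2A (Nav1.2, ENSG00000136531, chr2:165194993-165392310), a pore of action potentials in central neurons, had 98.0, 104 and 136 normalized counts in the empty vector and 203, 194 and 219 with overexpression. The groups did not overlap (113 ± 20.7 and 205 ± 12.9, SD, n = 3), at a level of 0.47 TPM, and the rise was 0.87 on the log2 scale (SE 0.20, DESeq2 adjusted p = 0.000946). Without empty vector replicate 3 it was 1.03, and the call was lost in 3 of 15 fits, each leaving out a single library: empty vector replicate 1, empty vector replicate 2 or overexpression replicate 3 (adjusted p from 0.0509 to 0.0697, DESeq2). The other detected Nav genes did not pass, among them SCN8A and SCN9A, of central and pain neurons, with log2 fold changes of −0.44 (SE 0.30) and −0.38 (SE 0.40).

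Of 18 calcium channel genes tested, 1 rose and 1 fell. CACNA1E (Cav2.3, ENSG00000198216, chr1:181317690-181813262), an R-type pore, had 19.2, 5.31 and 15.0 normalized counts in the empty vector and 33.6, 39.4 and 64.2 with overexpression. The groups did not overlap but were spread widely (13.2 ± 7.12 and 45.7 ± 16.2, SD, n = 3), and the rise was 1.80 on the log2 scale (SE 0.51, DESeq2 adjusted p = 0.0117), or 1.91 without empty vector replicate 3. At 0.095 TPM it was among the least expressed genes named here, and its call held in 10 of 15 fits (edgeR adjusted p = 0.0753). The log2 fold changes of all 5 detected Cav pore genes were above 0, with a median of 0.76, but 3 of the 5 had overlapping groups. CACNA1B (Cav2.2), the N-type pore, had 19.2, 37.2 and 47.2 counts against 73.6, 57.1 and 72.0. It did not overlap and did not pass (0.97, SE 0.36, DESeq2 adjusted p = 0.108, n = 3 and 3), and passed without empty vector replicate 3 (1.25, adjusted p = 0.0149). CACNA1D (Cav1.3), the highest of the pores at 0.38 TPM, had 89.9, 115 and 77.3 counts against 116, 122 and 85.5, groups that overlapped. The 4 α2δ genes, whose products raise channel density at the membrane, were likewise all above 0 (median 0.60), and none passed with all 6 libraries. CACNA2D1 had 1327, 1415 and 1209 counts against 1334, 1459 and 1456 (0.10, SE 0.11), and CACNA2D4 had 31.3, 12.4 and 10.7 against 43.6, 31.5 and 56.3 (1.27, SE 0.48). The groups of CACNA2D1 overlapped and those of CACNA2D4 did not, and CACNA2D4 passed without empty vector replicate 1 (1.91, adjusted p = 0.0272, DESeq2).

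The β subunits, which carry Cav pores to the membrane, showed the only called decrease among calcium channel genes. CACNB1 (ENSG00000067191, chr17:39173453-39197702, minus strand), the skeletal muscle β subunit, had 240, 236 and 171 normalized counts in the empty vector and 102, 131 and 116 with overexpression. The groups did not overlap, and empty vector replicate 3 was the closest to the overexpression libraries. It fell by 0.89 on the log2 scale (SE 0.21, DESeq2 adjusted p = 0.00164, n = 3 and 3; edgeR adjusted p = 0.0337), or by 1.03 without empty vector replicate 3. The call was lost in 3 fits that each left out a single library, which was empty vector replicate 1, empty vector replicate 2 or overexpression replicate 1 (adjusted p from 0.0702 to 0.0904, DESeq2). CACNB3, the main β subunit of these cells at 13.4 TPM, had 1240, 1262 and 1173 counts in the empty vector and 1402, 1523 and 1369 with overexpression. It was higher without overlap but small in size and did not pass (0.22, SE 0.11, DESeq2 adjusted p = 0.291). Of the γ genes, none passed: CACNG6, at 7.88 TPM, had a log2 fold change of 0.02 (SE 0.18), and CACNG8 had 474, 577 and 281 counts in the empty vector and 403, 399 and 376 with overexpression. CACNG8's change of −0.18 (SE 0.23) became −0.42 without empty vector replicate 3, its lowest library (adjusted p = 0.0339, DESeq2, n = 2 and 3).

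**Figure D4:**
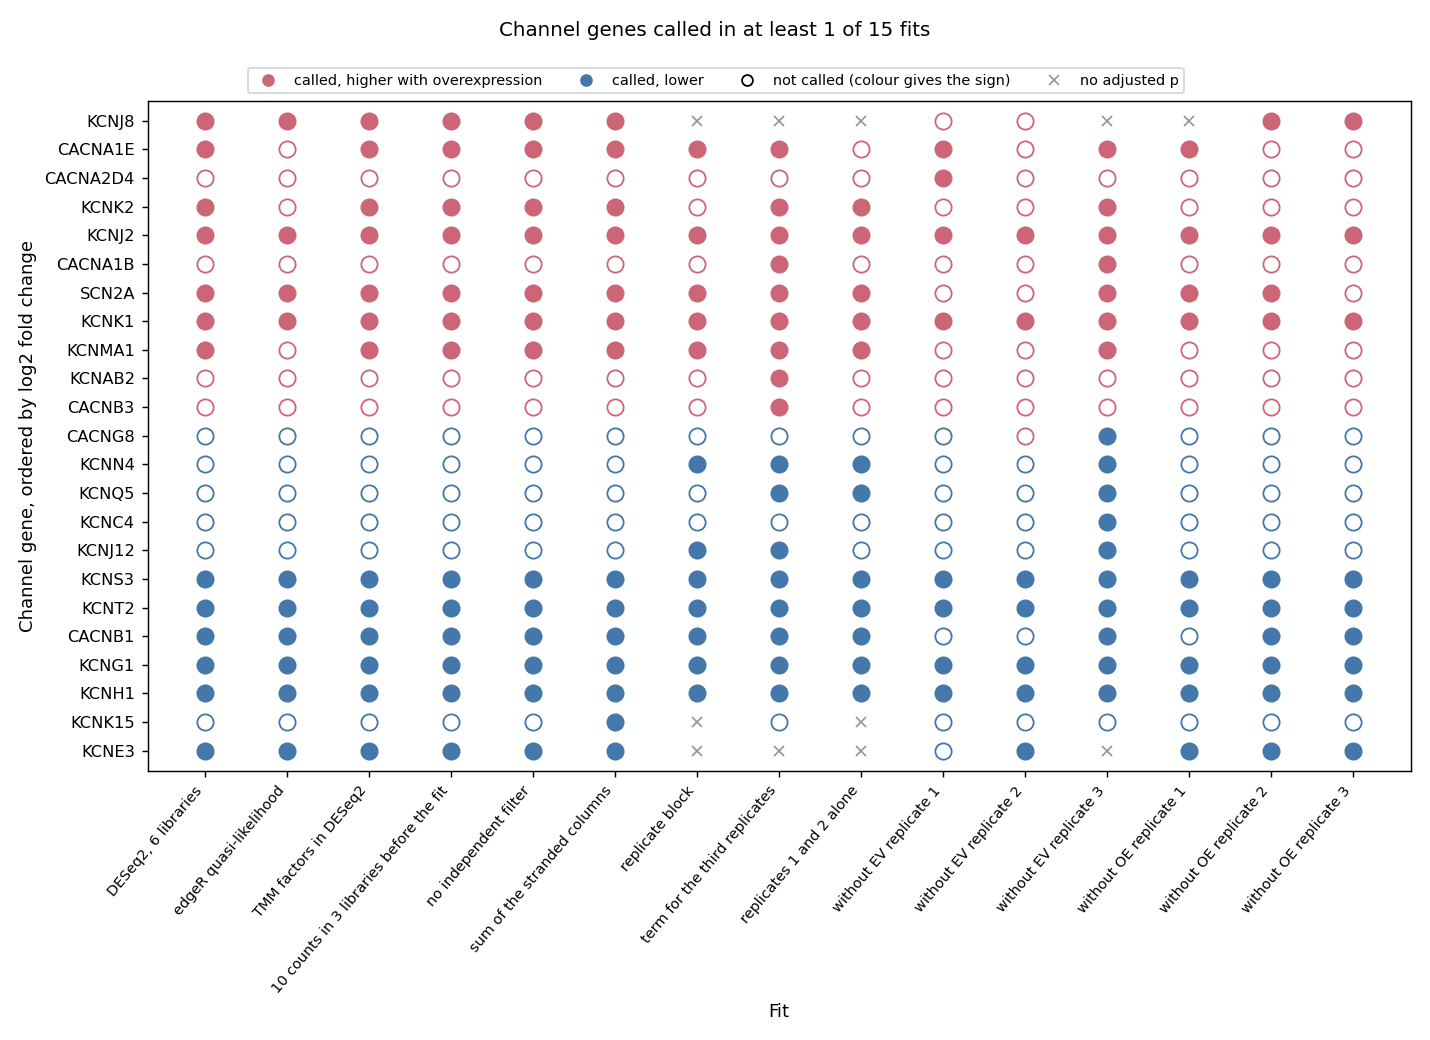
Calls of the 23 channel genes that passed in at least 1 of 15 fits (rows, ordered by log2 fold change; columns, fits; filled circles are adjusted p under 0.05, open circles not, crosses no adjusted p, and colour gives the sign). KCNJ2, KCNK1, KCNS3, KCNT2, KCNG1 and KCNH1 are filled in every column, and 10 genes are filled only in alternatives to the fit of 6 libraries with DESeq2.

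Which libraries entered moved the number of called members more than which scaling was used. TMM scaling, a filter on low counts before the fit and no independent filter each left 13 called, the same 13 genes, and stranded counting added KCNK15. Leaving out 1 library gave between 7 and 17, the highest without empty vector replicate 3, where 17 of 59 members tested passed (28.8%), against 17.8% of all genes in that fit. The 6 gained there were KCNC4, KCNQ5, KCNN4, KCNJ12, CACNA1B and CACNG8, and 5 of these 6 were lower with overexpression. KCNE3 and KCNJ8 had no adjusted p in that fit.

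Genes known to work with these channels were read from a list of 72, of which 50 were detected and 60 tested. Of these, 4 rose and 3 fell, 11.7% of those tested, against the 4.94% of all genes, and 6 of these 7 are described here. The list was chosen with earlier results of these data known, so this share is not independent of them. TPCN2, an endolysosomal cation channel that limits pigmentation, had 1092, 887 and 1061 counts against 656, 719 and 600. It fell by 0.62 (SE 0.14, DESeq2 adjusted p = 0.000476, n = 3 and 3) without overlap and in 15 of 15 fits. STAC2, an adaptor of L-type calcium channels, had 20.2, 29.2 and 20.4 counts against 56.3, 56.1 and 60.8. It rose by 1.30 (SE 0.34, adjusted p = 0.00547, DESeq2) and was called in 10 of 15 fits. CALM3, which encodes calmodulin, the calcium sensor bound to Cav, Nav, KCNQ and small-conductance potassium channels, rose by 0.32 (SE 0.10, adjusted p = 0.0258, DESeq2), and this call held in 9 of 15 fits. Among sodium channel anchors and modifiers, CNTN1, a cell adhesion partner of Nav channels, rose by 0.50 (SE 0.14, adjusted p = 0.0119, DESeq2), a call that held in 10 of 15 fits, and 2 genes fell. NEDD4L, a ubiquitin ligase that removes Nav and KCNQ channels from the membrane, had 11166, 11072 and 7971 counts against 7069, 6870 and 6283 and fell by 0.58 (SE 0.15, adjusted p = 0.00405, DESeq2), or by 0.72 without empty vector replicate 3. This call held in 11 of 15 fits and was lost with edgeR (adjusted p = 0.0603). ANK2, a membrane anchor, had 980, 860 and 417 counts against 423, 407 and 294 and fell by 1.01 (SE 0.28, adjusted p = 0.00869, DESeq2). Its groups overlapped because empty vector replicate 3 lay below the highest overexpression library, and edgeR gave an adjusted p of 0.115. Without that library the change was −1.29. None of the 10 tested potassium channel subunits outside the rule passed. None of 6 genes of the REST repressor complex, which silences neuronal channel genes in other tissues, passed, with log2 fold changes from −0.32 to 0.15; none of the 6 reached an unadjusted p under 0.05, and edgeR called none.

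**Figure D5:**
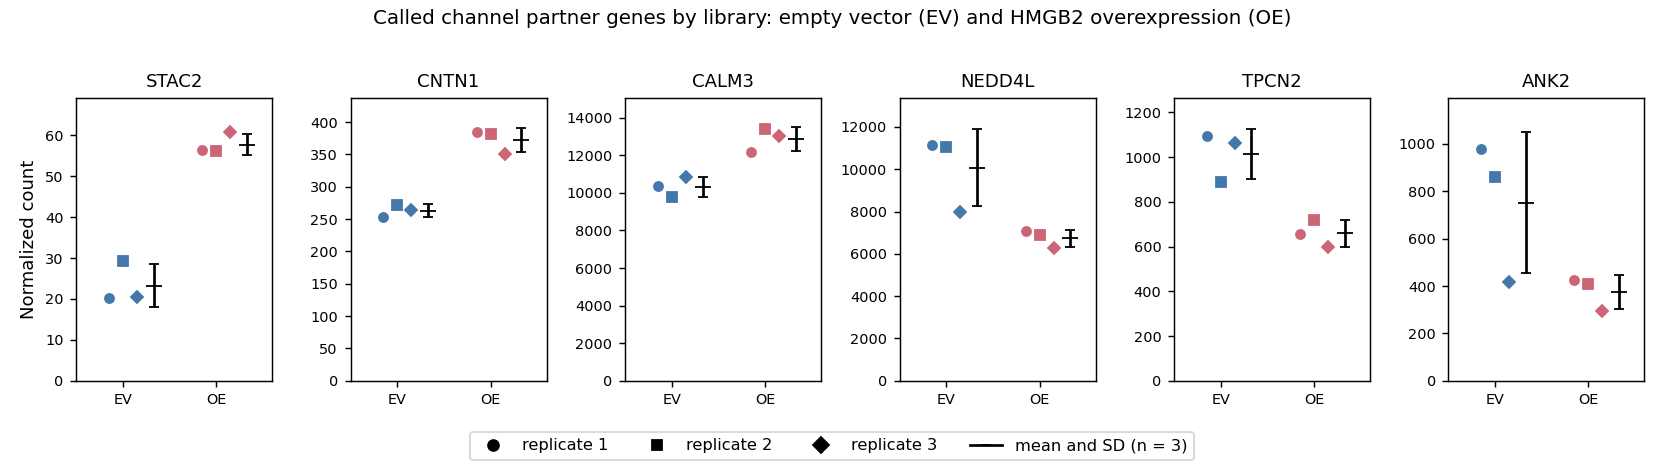
Normalized counts of 6 of the 7 called channel partner genes in each library (linear axes from 0; symbols are replicates 1 to 3, bars mean and SD, n = 3 per group; EV, empty vector; OE, HMGB2 overexpression). STAC2 stands at 20.2 to 29.2 in EV and 56.1 to 60.8 in OE, and ANK2 is the panel in which an EV library (417) lies among the OE libraries.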

How the data were processed

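Each library's deposited table holds whole-number read counts per gene, which the authors made with bcl2fastq 2.20, FastQC, Trimmomatic and STAR against GRCh38 (versions of the latter 3 tools and the annotation release are not given in the sources used here). The column counted on either strand was used, since the kit does not mark strand; the 4 summary lines were left out, and 57532 of 58302 identifiers matched GENCODE 44, whose coordinates are given (hg38); 0.0575% of counts lay on the rest. DESeq2 1.42.0 in R 4.3.3 (default parameters, Wald test, Benjamini-Hochberg adjustment over all genes, called under 0.05) compared 3 and 3 libraries, as in the study's methods. Alternatives were edgeR 4.0.16, other scaling, filters, stranded counts, a replicate block, a term for the third replicates and leaving out libraries. The fits were tested on simulated data, where the share of false calls exceeded the threshold with DESeq2 and stayed under it with edgeR. TPM used summed exon length. Each library's depth (45925053 to 56755212 reads) limits genes under 10 counts. Members called in any fit, the highest in each family, and the 3 detected with the largest rise and fall were named, as were called partners. Further members, among them KCNJ11, KCNE1, KCNF1 and KCNK5, were described outside this rule and are not in the tally of single named genes below. Values of 4 genes are not reported here. The members and lists were chosen with earlier results of these data known.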

Additional observations from a re-analysis of the deposited data

Results flagged for a closer look

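KCNMB3, a BK channel β subunit, drew attention because reads appeared in columns the comparisons did not use. The sum of the stranded columns gave it 1100 reads over the 6 libraries, 141, 206 and 170 in the empty vector and 227, 163 and 193 in the overexpression libraries, whereas the either-strand column held 13, or 1.18% of them. Its exons overlap PIK3CA on the opposite strand, and without strand reads of these genes cannot be told apart. Of the members with at least 100 stranded reads, 6 kept under 50% of them.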

How the results depend on the processing

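Over single named genes, 393 values under an alternative kept their direction and side of the threshold, 51 lost a call, 18 gained one and 3 reversed; 11 had no adjusted p; counts of calls, given next, are not in this tally. Of the 7 channel genes called higher, edgeR called 4, and leaving out a library gave 2 to 7; of the 6 lower, leaving out a library gave 4 to 10. The 4 partners higher became 7 with replicates 1 and 2 alone and 1 to 7 without a library; the 3 lower became 1 with edgeR, 5 with a term for the third replicates, 6 with replicates 1 and 2 alone and 1 to 7 without a library. Over all genes, 432 higher and 498 lower became 215 and 255 with edgeR, 886 and 940 with the replicate block, 1374 and 1359 with the term for the third replicates, 1203 and 1418 with replicates 1 and 2 alone, and 155 to 1334 and 208 to 1520 without a library (highest without empty vector replicate 3). At 1 TPM or more, 27 channel genes were detected in place of 68. Reversed signs, all in genes not called, were CACNG6 without empty vector replicate 2 (−0.065) or overexpression replicate 2 (−0.097; −0.097 to 0.11) and CACNG8 without empty vector replicate 2 (0.054; −0.42 to 0.054). The cause was not tested. The replicate block called 5 channel genes higher and 7 lower, and the pairing by number was not borne out: deviations of same-numbered libraries correlated at 0.0906, 0.142 and 0.349 over 16692 genes, and empty vector replicate 1 correlated best with overexpression replicate 2 (0.212). Depth limits genes near 10 counts, such as KCNJ8 and KCNE3.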
